A study of Mus musculus with 6 samples.

Results

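Collagen chain genes were taken as every gene with a symbol of the form Col, a type number, the letter a and a chain number, measured by a probe set annotated to that gene alone. This gave 42 genes with 82 probe sets, out of 18193 named genes and 45101 probe sets on the array: 11 fibrillar, 6 basement membrane and 25 other chains. RNA came from 6 mouse fetal livers at 13.5 days, 3 labelled wild-type and 3 labelled EKLF knock out (Eklf -/-), with 1 Affymetrix array for each liver. EKLF, encoded by Klf1, is a zinc-finger activator of red cell genes that binds CACCC-type DNA motifs. Liver cells had been labelled with the dead-cell dye 7AAD and with antibodies to the transferrin receptor CD71 and the erythroid surface antigen Ter119, and the sorted fraction was called early erythroid progenitors. All 6 samples carry the strain label C57BL/6, and the labels trace the knockout allele to a genomic library of strain 129 and to targeted cells placed in C57BL/6 blastocysts. Neither the sorting gates nor the deleted part of the gene are given in the sources used here.

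Collagens are the main structural proteins of the extracellular matrix. Their chains fold into triple helices, after prolyl and lysyl hydroxylation in the endoplasmic reticulum, and are secreted as procollagens. Fibrillar collagens are then trimmed at their ends, assemble into fibres and are crosslinked by lysyl oxidases. Basement membrane collagens, the type IV chains, form the sheet-like networks beneath epithelium and endothelium. The remaining classes coat or link fibres (FACIT collagens), form beaded filaments (type VI), release or carry anti-angiogenic domains (the multiplexins, types XV and XVIII), or cross the plasma membrane. In liver, fibrillar chains are made mainly by stellate cells and other mesenchymal cells, and type IV chains also by endothelium.

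The promoter sequences of Col1a2 and Col3a1, fibrillar chains with large differences, and the shared promoter of Col4a1 and Col4a2 are shown because these chains were higher together on the knockout-labelled arrays. They were read from RefSeq promoter windows on build GRCm38.p6, 250 bases before to 50 after the annotated start, and 33 of the 42 genes had an entry, with 36 windows between them. Capitals in the first sequence mark a match to CCNCNCCC, a CACCC-type motif of the kind EKLF is known to bind, searched on both strands. The first held 1 match and the second none, and the Col4a1 and Col4a2 windows held 3 and 2, not marked. In the other pair, which belongs to genes placed head to head with starts 21 bases apart, capitals mark the 78 bases that lie in both windows, printed on opposite strands.
Col1a2, chr6:4505368-4505667, plus strand: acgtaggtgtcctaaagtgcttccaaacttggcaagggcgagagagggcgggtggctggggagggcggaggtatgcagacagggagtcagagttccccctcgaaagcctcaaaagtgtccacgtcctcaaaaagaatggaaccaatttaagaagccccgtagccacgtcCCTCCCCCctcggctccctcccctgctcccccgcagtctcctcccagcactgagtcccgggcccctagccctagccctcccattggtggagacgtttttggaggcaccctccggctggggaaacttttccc
Col3a1, chr1:45311288-45311587, plus strand: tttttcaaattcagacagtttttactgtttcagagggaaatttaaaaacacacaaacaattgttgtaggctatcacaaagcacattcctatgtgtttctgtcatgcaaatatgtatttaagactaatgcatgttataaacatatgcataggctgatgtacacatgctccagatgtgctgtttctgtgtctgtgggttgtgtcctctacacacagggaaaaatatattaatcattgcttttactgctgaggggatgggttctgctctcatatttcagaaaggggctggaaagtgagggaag
Col4a1, chr8:11312777-11313076, minus strand: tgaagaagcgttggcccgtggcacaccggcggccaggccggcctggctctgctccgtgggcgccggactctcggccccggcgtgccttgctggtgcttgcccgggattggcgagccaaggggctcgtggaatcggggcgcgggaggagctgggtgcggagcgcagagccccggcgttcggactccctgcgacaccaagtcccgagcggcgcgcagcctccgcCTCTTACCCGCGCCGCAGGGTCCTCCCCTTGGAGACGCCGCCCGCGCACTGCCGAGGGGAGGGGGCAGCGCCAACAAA
Col4a2, chr8:11312555-11312854, plus strand: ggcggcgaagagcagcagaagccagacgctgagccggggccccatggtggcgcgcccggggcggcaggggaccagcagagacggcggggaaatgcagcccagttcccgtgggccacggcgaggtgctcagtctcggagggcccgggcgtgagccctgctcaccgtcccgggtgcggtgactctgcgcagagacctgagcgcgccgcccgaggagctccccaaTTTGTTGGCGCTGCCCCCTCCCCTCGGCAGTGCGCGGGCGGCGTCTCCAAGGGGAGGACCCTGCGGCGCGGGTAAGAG
The CCNCNCCC motif occurred in 28 of the 36 collagen windows (77.8%) and in 49.5% of all 32851 windows of this length. Among the 20 windows of genes called higher, 16 held it (80.0%). The narrower motif CCACACCC, every match of which is also a match of the first, occurred in 1 collagen window (2.78%) and in 3.56% of all windows. These are counts of letters and say nothing of binding. By RefSeq gene order, 7 pairs of collagen genes were direct neighbours among protein-coding genes, among them Col3a1 with Col5a2, Col6a1 with Col6a2 and Col4a1 with Col4a2.

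Signals are MAS5 values on a linear scale, in arbitrary units, and every difference is a log2 value, the mean of the knockout-labelled arrays minus that of the others. A gene with several probe sets was read at the brightest of them. Signals of different probe sets do not compare as amounts of RNA. Genes with a mean log2 signal under 6.62, a signal of 98.6, were not tested. A gene was called higher or lower at an adjusted p under 0.05 in limma, adjusted by Benjamini-Hochberg over the 12799 genes that were tested. Array medians ran from 97.7 to 140 in the wild-type-labelled group and from 204 to 218 in the knockout-labelled group, and correlations between groups (0.822 to 0.858) were lower than within them (0.897 to 0.944). Klf1 itself did not separate the groups, with signals of 2508, 2706 and 4030 against 3505, 1391 and 2545. Its log2 difference was -0.38 ± 0.32 (SE), limma adjusted p = 0.347, and its adjusted p fell to 0.0128 (difference -1.20) when arrays were centred on their medians. The groups are therefore named by their labels throughout.

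Collagen genes were higher on the knockout-labelled arrays as a family. Of the 28 genes tested, 24 were called higher and 0 lower by limma, and since all 28 differences were above 0, none was lower at an unadjusted p under 0.05 either. Over all genes tested, 27.9% were called higher and 20.8% lower. The median log2 difference was 1.82 for the tested collagens (range 0.24 to 5.36) and 0.14 for all genes tested. Under quantile and cyclic loess normalization Col11a2 and Col25a1 fell below 0, and under median centring Col5a3 did too, but none of the 3 was called in any of these fits. The signals of the groups did not overlap for 23 of the 28 tested genes, all higher, against 34.1% of all genes tested. Of all 42 members, tested or not, 32 were higher without overlap and 0 lower, and 34.6% of all named genes were higher without overlap. For 9 tested collagens the wild-type-labelled mean was under the filter signal, so that they passed through the knockout-labelled group and their calls are no support for the family: Col1a1, Col5a2, Col11a1, Col6a1, Col16a1, Col22a1, Col19a1, Col15a1 and Col23a1. With signals raised to the filter level, an alternative chosen after seeing the data, all 9 were still called higher, with smaller differences. Of the other 19, 15 were called higher. Among these, Col4a3 had a wild-type-labelled mean of 99.9, just above the filter signal, with array 1 at 49.1. On the log2 scale of the filter its wild-type-labelled mean was under 6.62, so its call is no support either.

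**Figure D1:**
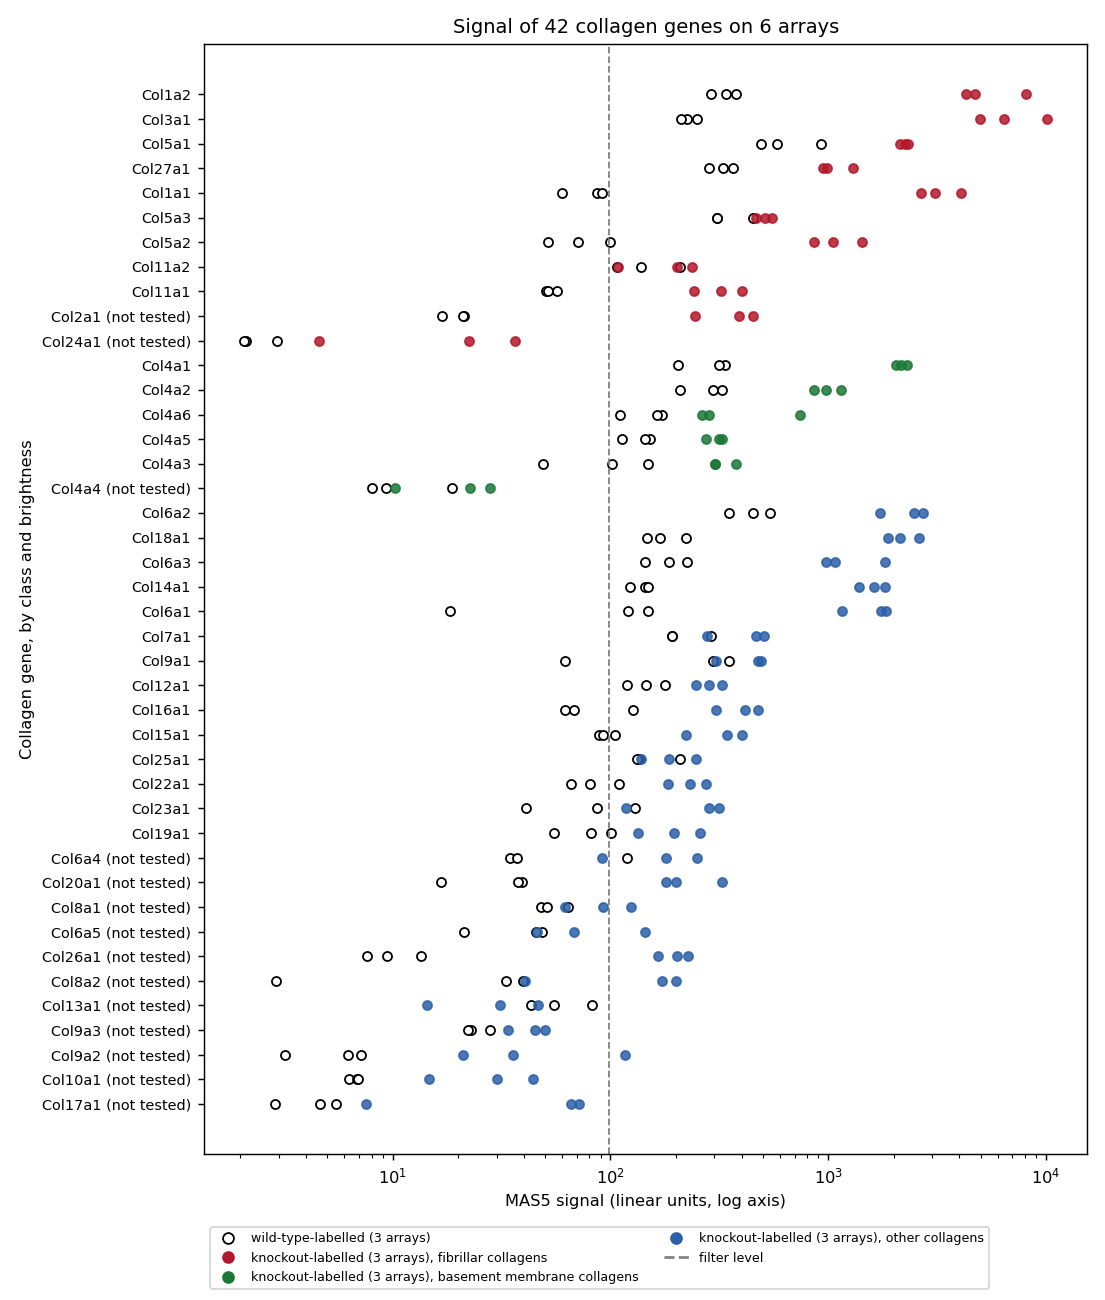
MAS5 signal (log axis) of each of the 42 collagen genes on 6 arrays, with open points for the 3 wild-type-labelled arrays and filled points, coloured by class, for the 3 knockout-labelled arrays; the dashed line is the filter level of 98.6. Col1a1, Col3a1 and Col1a2 lie far apart between groups, and for 32 genes no filled point lies among the open ones.

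Dim genes drifted upward on the knockout-labelled arrays as a whole, so the collagens were also set beside genes of like brightness. In 4 bins of near-equal size, with the tested genes ordered by mean signal from dimmest to brightest, the share called higher was 44.6%, 35.1%, 16.8% and 15.1%, and the median difference was 0.94, 0.34, -0.13 and -0.25. The dimmest bin held 11 tested collagens, of which 9 were called higher, with a median of 1.44. The second bin held 10, with 8 called higher and a median of 2.31. All 6 collagens of the third bin were called higher, with a median of 2.66, and the brightest bin held only Col1a2. Collagen medians were above the bin's median in each of the first 3 bins, and by most in the third. Mean signal was taken over all 6 arrays, so a higher knockout-labelled signal itself moves a gene to a brighter bin. Col3a1 and Col18a1 of the third bin had wild-type-labelled means of 228 and 179, within the dimmest bin's range (up to 230). That of Col1a2 was 335. The bins are therefore no independent support for the collagen differences.

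**Figure D2:**
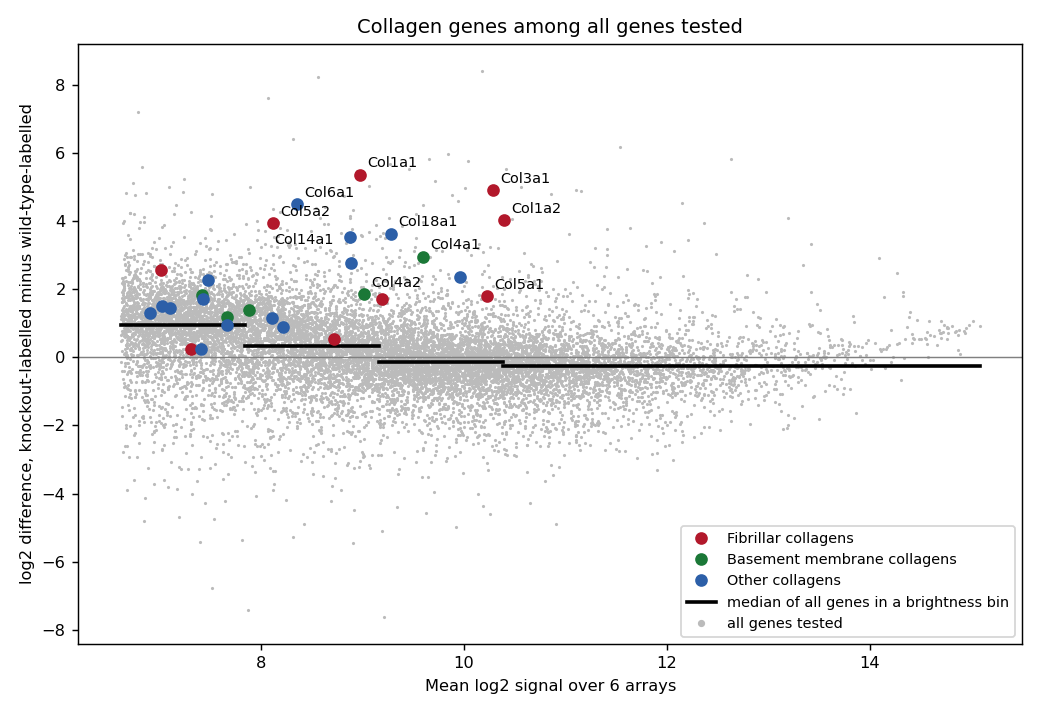
Log2 difference (knockout-labelled minus wild-type-labelled) against mean log2 signal over 6 arrays for 12799 genes (grey) and the 28 tested collagens (coloured by class), with black bars for the median of all genes in each brightness bin. The bars fall from 0.94 to -0.25 with brightness, while Col1a2, Col3a1, Col4a1 and Col18a1 stand at 2.96 to 4.91 among genes of middle to high signal.

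Chains of type I and type III collagen, the main fibre-forming collagens of connective tissue, had the largest differences of the tested fibrillar class. Of the 11 fibrillar genes, 9 were tested and 7 were called higher (77.8%), beside 27.9% of all genes tested, with a median of 2.57. That this median lay above those of the other classes was not tested. Col1a1, the alpha-1 chain of type I, gave signals of 87.0, 60.1 and 91.8 on wild-type-labelled arrays 1 to 3, and of 4065, 2663 and 3095 on knockout-labelled arrays 1 to 3. Every wild-type-labelled array was under the filter level and every knockout-labelled one was far above it. The mean rose from 79.6 ± 17.0 to 3274 ± 718 (SD, n = 3 in each group), a log2 difference of 5.36 ± 0.25 (SE) with a limma adjusted p of 2.37e-06, or 41.2-fold. The size rests on this dim baseline: with all signals raised to the filter level the difference was 5.03.

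Col1a2, the partner chain of type I, gave 339, 375 and 291 against 8088, 4289 and 4728. Its groups lay far apart, and all its wild-type-labelled signals were above the filter level. The log2 difference was 4.04 ± 0.25, or 16.4-fold (335 ± 42.4 against 5702 ± 2079, SD, n = 3 each; limma adjusted p = 7.54e-06). Col3a1, which forms type III fibres that often mix with type I, gave 225, 249 and 211 against 10127, 6385 and 4951. It too had no overlap, and knockout-labelled array 1 stood above the others. Its difference was 4.91 ± 0.25, or 30.0-fold (228 ± 19.2 against 7155 ± 2673, SD, n = 3 each; limma adjusted p = 3.54e-06).

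Type V collagen nucleates type I fibres and limits their width. Col5a2 gave 51.8, 70.7 and 99.3 against 1424, 862 and 1054, a difference of 3.93 ± 0.31 (limma adjusted p = 2.45e-05), or 3.46 with signals raised to the filter level. Col5a1 gave 585, 493 and 923 against 2324, 2126 and 2243, a difference of 1.79 ± 0.23 (limma adjusted p = 0.00032). At these probe sets the groups of both chains were apart. Every Col5a1 signal was above the filter level, against 1 wild-type-labelled signal of Col5a2. The other Col5a1 probe sets, also above that level on every array, gave smaller differences of 0.88 and 1.11. The groups of the latter overlapped, and it was not called when all probe sets were tested together (limma adjusted p = 0.0693). Col5a3, the third chain, gave 309, 308 and 452 against 552, 512 and 468. Its groups did not overlap but lay close together, and it missed the threshold (0.54 ± 0.23, limma adjusted p = 0.0745).

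The remaining fibrillar chains split by brightness and call. Col27a1, a chain of cartilage and other tissues, gave 327, 284 and 366 against 1293, 945 and 991 (1.72 ± 0.21, limma adjusted p = 0.000209). Col11a1, which with its partner chains nucleates cartilage fibres, gave 50.8, 56.9 and 51.9 against 402, 241 and 323 (2.57 ± 0.35, limma adjusted p = 0.000441). All 3 of its wild-type-labelled signals were under the filter level, as for Col1a1, and with signals raised to that level its difference was 1.68. Col11a2 overlapped between groups, with 210, 138 and 107 against 236, 108 and 201 (0.24 ± 0.41, limma adjusted p = 0.642). Col2a1, the main collagen of cartilage, and Col24a1 were under the filter. Col2a1 nevertheless had groups far apart, 16.8, 21.2 and 21.0 against 389, 245 and 450.

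Of the 6 type IV chains, 5 were tested and all 5 were called higher, beside 27.9% of all genes tested. In the dimmest bin, which held Col4a3 and Col4a5, the share was 44.6%. The median difference of the 5 was 1.84. Col4a1 and Col4a2 encode the chains of the common basement membrane network and are read from the shared promoter region printed above. Col4a1 gave 337, 315 and 204 against 2306, 2156 and 2036, a difference of 2.96 ± 0.22, or 7.76-fold (285 ± 71.4 against 2166 ± 136, SD, n = 3 each; limma adjusted p = 1.88e-05). Col4a2 gave 297, 326 and 208 against 1139, 862 and 979, a difference of 1.86 ± 0.23, or 3.63-fold (277 ± 61.5 against 994 ± 139, SD, n = 3 each; limma adjusted p = 0.000256). In both, the wild-type-labelled array with the lowest signal was array 3 and the groups were well apart. Whether the difference of Col4a1 exceeds that of Col4a2 was not tested, since they are read by different probe sets.

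The other type IV chains, which form networks restricted to particular tissues such as the kidney glomerulus, had differences of 1.17 to 1.84, on signals nearer the filter level. Col4a3 gave 49.1, 149 and 102 against 301, 302 and 377 (1.84 ± 0.42, limma adjusted p = 0.00623). On the log2 scale its wild-type-labelled mean was under the filter level, so it passed through the knockout-labelled group and its call is no support. Col4a5 gave 152, 143 and 114 against 325, 274 and 316 (1.17 ± 0.27, limma adjusted p = 0.00683). Col4a6 gave 110, 173 and 163 against 284, 264 and 745 (1.39 ± 0.42, limma adjusted p = 0.0211). The groups of these 3 chains did not overlap, but knockout-labelled array 3 carried most of the Col4a6 mean, and its call was lost without that array (adjusted p = 0.0563) and without wild-type-labelled array 1 (0.0646). All 3 calls were also lost under quantile normalization, with limma adjusted p of 0.0591, 0.196 and 0.22 for Col4a3, Col4a5 and Col4a6. Col4a4 was under the filter on all arrays, at 18.7, 9.31 and 8.03 against 22.6, 10.3 and 27.9, and its groups overlapped.

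Among the 25 other chains, 14 were tested and 12 were called higher (85.7%), beside 27.9% of all genes tested, with a median of 1.61. The type VI chains, which form beaded filaments around cells, had their largest difference in Col6a1. It gave 149, 120 and 18.4 against 1745, 1846 and 1161, a difference of 4.49 ± 0.67 (95.8 ± 68.5 against 1584 ± 370, SD, n = 3 each; limma adjusted p = 0.000749). Wild-type-labelled array 3 was far below its partners, and without it the difference was 3.54, and 3.68 with signals raised to the filter level. Col6a2 gave 540, 450 and 350 against 2725, 2475 and 1726 (2.37 ± 0.23, limma adjusted p = 7.17e-05). Col6a3 gave 186, 224 and 144 against 1818, 978 and 1073 (2.77 ± 0.28, limma adjusted p = 8.86e-05). All 3 main type VI chains were therefore apart between groups. The less common chains Col6a4 (34.4, 119 and 37.3 against 251, 180 and 91.8) and Col6a5 (21.3, 48.5 and 45.7 against 68.0, 46.1 and 144) were under the filter, and both overlapped.

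The multiplexins are collagens of vascular and epithelial basement membrane zones, and the end of type XVIII is released as endostatin. Col18a1 gave 146, 222 and 170 against 2143, 1884 and 2612, a difference of 3.63 ± 0.22, or 12.4-fold (179 ± 38.8 against 2213 ± 369, SD, n = 3 each; limma adjusted p = 7.64e-06). Its other probe set gave 3.14. Col15a1 gave 88.6, 92.9 and 105 against 402, 341 and 223 (1.72 ± 0.32, limma adjusted p = 0.00251). Both genes were without overlap, with the Col15a1 signals the nearer to the filter level and its adjusted p at 0.0583 under quantile normalization.

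FACIT collagens sit on the surface of fibres. Col14a1, which binds fibres through decorin, gave 123, 144 and 149 against 1382, 1624 and 1824, a difference of 3.53 ± 0.20, or 11.6-fold (limma adjusted p = 6.08e-06). Col16a1 gave 62.1, 127 and 67.8 against 475, 413 and 304 (2.27 ± 0.37, limma adjusted p = 0.00111), with a difference of 1.86 when signals were raised to the filter level. Col12a1, a chain of tendon and other dense tissue, gave 145, 178 and 119 against 247, 282 and 326 (0.96 ± 0.28, limma adjusted p = 0.0204). These 3 did not overlap between groups, and the Col12a1 value depended on its probe set. A dimmer Col12a1 probe set, under the filter and not tested, gave 4.95, 6.87 and 13.4 against 316, 373 and 360, a difference of 5.50.

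Col22a1, a chain of tissue junctions such as that of muscle and tendon, gave 110, 80.7 and 65.8 against 184, 233 and 274 (1.44 ± 0.36, limma adjusted p = 0.00918). Col19a1 gave 100, 81.0 and 55.3 against 196, 257 and 133 (1.30 ± 0.41, limma adjusted p = 0.0269). Both lay near the filter level in the wild-type-labelled group. Col7a1, the anchoring fibril chain of skin, gave 191, 289 and 192 against 279, 507 and 466 (0.88 ± 0.31, limma adjusted p = 0.0385), and Col23a1, a transmembrane chain, gave 130, 40.8 and 87.0 against 283, 118 and 315, a difference of 1.50 ± 0.54 (limma adjusted p = 0.0431). The groups of Col7a1 and Col23a1 overlapped, and when all probe sets were tested together their adjusted p-values were 0.0506 and 0.0511. Col9a1, a cartilage FACIT chain, gave 294, 349 and 62.1 against 477, 489 and 305 (1.16 ± 0.58, limma adjusted p = 0.124), and without the low wild-type-labelled array 3 its difference was 0.37. Col25a1, a transmembrane chain of neurons, gave 135, 132 and 209 against 137, 248 and 186 (0.25 ± 0.35, limma adjusted p = 0.568). Both overlapped at these probe sets and were not called. A dimmer Col25a1 probe set, under the filter and not tested, gave 99.5, 38.3 and 14.8 against 174, 213 and 190. Its groups did not overlap, with a difference of 2.32. With the mean of its probe sets, Col25a1 was called higher (1.29, limma adjusted p = 0.0226).

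Several of these calls lay near the threshold and were lost when 1 array was left out, with differences mostly of similar size. Col12a1 was not called without wild-type-labelled array 1 (difference 0.96, limma adjusted p = 0.0618) or 3 (0.82, 0.0507), or without knockout-labelled array 3 (0.86, 0.0604). Col19a1 was not called without wild-type-labelled array 2 (1.34, 0.0557) or 3 (1.06, 0.074), or without knockout-labelled array 1 (1.27, 0.0611) or 2 (1.08, 0.0981). Col7a1 was not called without wild-type-labelled array 1 (0.78, 0.112) or 3 (0.78, 0.0873), or without knockout-labelled array 2 (0.72, 0.125) or 3 (0.78, 0.11). Col23a1 was not called without wild-type-labelled array 2 (1.04, 0.127) or 3 (1.59, 0.0691), or without knockout-labelled array 1 (1.32, 0.12) or 3 (1.24, 0.138). The scaling moved these chains further. Under quantile normalization, cyclic loess and median centring the difference of Col12a1 was 0.25, 0.25 and 0.15, that of Col19a1 0.46, 0.42 and 0.48, and that of Col22a1 0.63, 0.59 and 0.63. The difference of Col7a1 was 0.38, 0.38 and 0.06, and that of Col23a1 0.75, 0.64 and 0.69. None of these 5 was called under any of the 3, with limma adjusted p from 0.165 (Col22a1) to 0.87 (Col7a1). Of the 24 genes called higher, 15 were called in each of the 19 alternatives that tested them. They were all 7 fibrillar genes, Col4a1 and Col4a2, and Col6a1, Col6a2, Col6a3, Col14a1, Col16a1 and Col18a1. Of these, Col1a1, Col5a2, Col11a1, Col6a1 and Col16a1 are among the 9 that passed the filter through the knockout-labelled group. Their calls are no support here either. The share of all called genes that were called in every alternative is not given here, so the 15 cannot be set beside it.

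The scaling of the arrays set the number of calls outside the fibrillar class. Under quantile normalization 15 collagen genes were called higher, beside 17.4% of all genes, and under cyclic loess 15, beside 17.9%. Centring each array on its median, which moved the median of all genes to -0.68, left 17 collagens called higher beside 8.48% of all genes. All 7 fibrillar calls were among those kept in each case, though Col1a1, Col5a2 and Col11a1 had passed the filter through the knockout-labelled group. Col1a1 differed by 5.08, 5.17 and 4.55 in these 3 fits, Col3a1 by 4.73, 5.08 and 4.09, and Col4a1 by 2.83, 2.97 and 2.14. With the filter at the 60th percentile 15 of the 17 collagens left were called higher, beside 22.2% of all genes. With the mean of each gene's probe sets, 18 of the 20 that passed the filter were called higher, beside 27.4%. No collagen gene was called lower in any alternative.

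**Figure D3:**
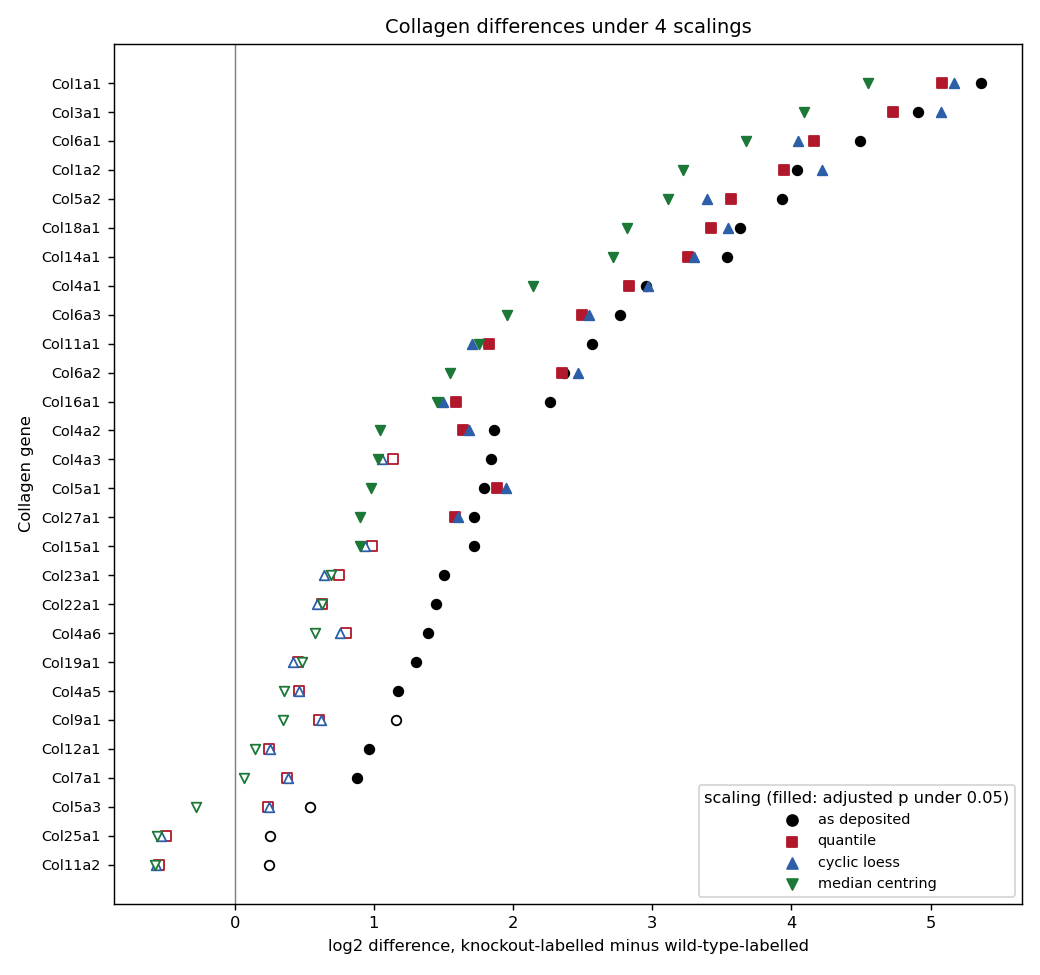
Log2 difference (knockout-labelled minus wild-type-labelled) of the 28 tested collagen genes under 4 scalings of the arrays, with filled symbols for an adjusted p under 0.05 in limma. Col1a1, Col3a1, Col1a2, Col6a1 and Col5a2 stay above 3 under all 4. Col11a2 and Col25a1 under the 3 other scalings, and Col5a3 under median centring, lie below 0 with open symbols.

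Of the 14 genes under the filter, 9 had groups that did not overlap, all higher on the knockout-labelled arrays, beside 34.6% of all named genes. No wild-type-labelled signal of these 14 exceeded 119 and no knockout-labelled one exceeded 450. Col26a1 stood out with 9.44, 13.5 and 7.63 against 226, 165 and 203. Its other probe set gave 28.2, 41.0 and 39.1 against 49.4, 34.2 and 48.1, with overlapping groups and a difference of 0.28. Col13a1, a transmembrane chain, was the only one with a lower mean, 55.2, 82.2 and 43.2 against 46.6, 14.4 and 31.0, and its groups overlapped. The FACIT chain Col20a1 gave 39.1, 37.5 and 16.7 against 200, 326 and 181, with every knockout-labelled signal above the filter level. Col8a2, a network chain of the cornea and other tissues, gave 2.90, 33.3 and 39.7 against 199, 40.4 and 173, and its knockout-labelled array 2 nearly met the other group. Col9a2, Col9a3, Col10a1, Col17a1, Col2a1 and Col24a1 were also without overlap, and Col4a4, Col6a4, Col6a5 and Col8a1 overlapped. The chains Col9a3, Col10a1, Col17a1 and Col24a1 were under the filter level on all 6 arrays. The boundary of the filter fell between Col19a1, tested at a mean log2 of 6.91, and Col6a4, not tested at 6.53. When no filter was applied, 29 of the 42 were called higher and 0 lower by limma, beside 24.0% of 18193 genes. The calls this added were Col2a1 (4.16), Col26a1 (4.31), Col20a1 (2.97), Col9a2 (3.08), Col10a1 (2.01), Col17a1 (2.97) and Col24a1 (2.72), while Col7a1 and Col23a1 missed the threshold.

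Probe sets of the same chain mostly had the same sign. Of 82 collagen probe sets, 39 passed the filter, 31 were called higher and 0 lower, beside 28.1% and 15.7% of the 27023 probe sets tested. Without the filter, 47 of the 82 were called higher, beside 21.4% of all probe sets. The difference was above 0 in 80 of the 82. The exceptions were the sole probe set of Col13a1 (-1.08) and a dim probe set of Col19a1 (-1.35), and Col19a1 was the only one of the 27 genes with more than 1 probe set to have both signs. The second Col1a1 probe set gave 122, 113 and 104 against 2805, 1492 and 1333, above the filter level on every array, with a difference of 3.97. The differences of the Col1a2 probe sets ran from 2.71 to 4.83, those of Col3a1 from 4.55 to 4.91 and those of Col5a2 from 3.93 to 5.13. Those of Col5a1 ran from 0.88 to 1.79, those of Col25a1 from 0.25 to 2.32 and those of Col26a1 from 0.28 to 4.31. No collagen probe set was shared with another gene in the annotation used.

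The knockout-labelled arrays differed among themselves in fibrillar signal. All 9 tested fibrillar genes were highest on knockout-labelled array 1, while the other 19 tested collagens were split over arrays 1, 2 and 3 as 7, 5 and 7. The signal on that array over the geometric mean of the other pair was 1.80 for Col1a2, 1.80 for Col3a1 and 1.42 for Col1a1, and ran from 1.06 (Col5a1) upward. Without that array 22 collagen genes were called higher, 7 of them fibrillar, beside 27.1% of all genes tested. Col1a1 then differed by 5.20 and Col3a1 by 4.63. Of the tested markers of other cells, stromal genes were highest on arrays 1, 2 and 3 in 5, 3 and 5 cases, endothelial genes in 2, 8 and 6, and hepatocyte genes in 1, 2 and 12.

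Markers of the other cells that a fetal liver holds were mostly called higher, as the collagens were, and their part in the collagen differences was not tested. The counts below are to be read beside the 27.9% of all tested genes called higher and the 20.8% called lower. Among the markers called higher, Dcn, Lum, Cxcl12, Ngfr, Pdgfra, Flt1, Tie1, Fgb, Marco and C1qc had wild-type-labelled means under the filter signal. They passed through the knockout-labelled group, so their calls are no support. The wild-type-labelled mean of Cdh5 was 100, but on the log2 scale it too was under the filter level, so its call is no support. In RNA from sorted populations, more cells of a type and more RNA per cell cannot be told apart. Of 17 stromal and stellate cell markers, 13 were tested, 9 were called higher (69.2%) and 1, Thy1, lower (7.69%), and their summed signal was 2381 to 2684 on the wild-type-labelled arrays and 10234 to 13999 on the knockout-labelled ones. Among the defining ones, Pdgfrb gave 159, 189 and 138 against 586, 462 and 257, while the stellate cell genes Lrat (29.0, 10.9 and 6.98 against 29.6, 56.7 and 125) and Lhx2 (3.87, 9.45 and 14.8 against 21.5, 83.1 and 131) were under the filter in the mean, with Hand2 and Tagln. None of the markers was listed at 0. Of 16 endothelial markers, all tested, 11 were called higher (68.8%) and 1, Erg, lower (6.25%), and the sum ran from 4627 to 5126 and from 8037 to 10050. Of 15 hepatocyte markers, all tested, 14 were called higher (93.3%), and the sum ran from 9767 to 10449 and from 128225 to 200635. Macrophage markers (12, with 9 tested) were called higher in 7 cases (77.8% of those tested), and 1, Csf1r, was called lower (11.1%). Csf1r gave 8176, 8712 and 9837 against 3668, 4560 and 4633. The macrophage sums, 10568 to 12906 and 12598 to 16674, overlapped between groups. For megakaryocytes, 9 of 11 markers were called higher (81.8%), with sums of 8261 to 9587 and 35112 to 45468. Erythroid markers, which check the labelled cell type, were present in both groups with sums of 26081 to 30385 and 85325 to 107947. Of 11, 9 were called higher (81.8%), from 1.38-fold (Tfrc) to 15.3-fold (Alas2), and Ank1 and Klf1 were not called. This direction is opposite to that of losing an activator of red cell genes. The reason was not tested, and presence in both groups does not check the group labels or the sorted fractions.

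Summed over their members, fibrillar collagens gave 2204, 2059 and 2617 against 28923, 18381 and 18541. Basement membrane collagens gave 964, 1115 and 798 against 4379, 3868 and 4481, and the other collagens 2649, 2974 and 2075 against 13797, 12711 and 12010. These sums did not overlap between groups in any class, and bright probe sets weigh most in them.

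**Figure D4:**
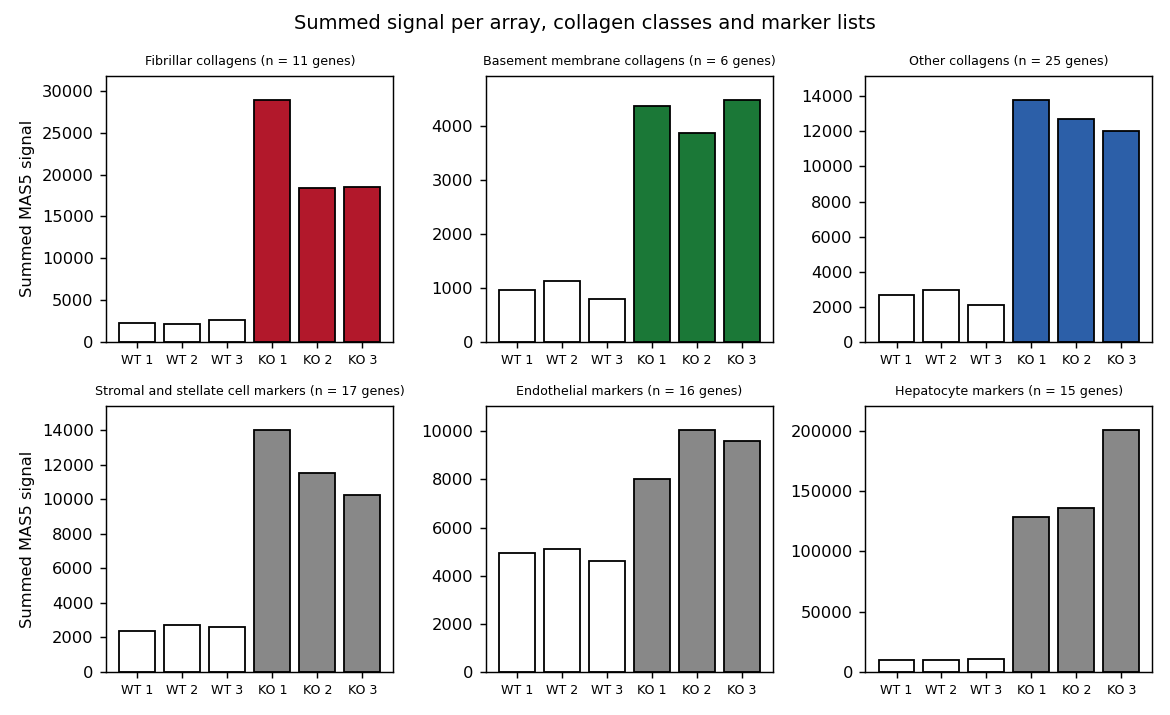
Summed MAS5 signal (linear, from 0) on each of the 6 arrays for the 3 collagen classes and for stromal, endothelial and hepatocyte markers; white bars are wild-type-labelled and filled bars knockout-labelled arrays, and each panel has its own scale. Knockout-labelled bars are higher in every panel, fibrillar signal is highest on knockout-labelled array 1 (28923) and hepatocyte marker signal on array 3 (200635).

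The machinery that makes and handles collagen was read from 6 lists with 89 measured genes, of which 61 were tested, 40 called higher and 5 lower, beside 27.9% and 20.8% of all genes tested. Some of the 40 had a wild-type-labelled mean under the filter signal, so that they passed through the knockout-labelled group. Their calls are no support for the lists: P4ha2, P3h4, Fkbp14, Pcolce, Lox, Loxl4, Ctsk, Dcn, Lum, Fbn2, Fmod, Lamb1, Agrn, Ddr2 and Itga2. For modification and folding, 8 of 18 tested genes were called higher (44.4%) and 2 lower (11.1%). Serpinh1, the collagen-specific chaperone HSP47, gave 169, 259 and 280 against 2119, 1555 and 1284 (2.81 ± 0.26, limma adjusted p = 5.31e-05). The lysyl hydroxylase Plod2, which prepares crosslink sites, gave 181, 219 and 157 against 964, 1774 and 1205 (2.79 ± 0.26, limma adjusted p = 5.51e-05). P4ha1, a catalytic subunit of prolyl 4-hydroxylase, rose by 2.33 and Plod1 by 1.59. Their groups did not overlap. The 8 genes of the list that were not called in either direction were Creb3l2, Ppib, P3h1, P3h2, Sec23a, Mia3, P4hb and Crtap. Their differences ran from -0.28 (the cyclophilin Ppib) to 0.48 (the prolyl 3-hydroxylase P3h2). The called decreases were in the galactosyltransferase Colgalt1 (-0.66) and in Plod3 (-0.51).

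In processing and crosslinking, 5 of 6 tested genes were called higher (83.3%, beside 27.9% of all genes) and 0 lower by limma, and the sixth had a positive difference too. Tgm2, a transglutaminase, gave 795, 513 and 840 against 4457, 4326 and 4080 (2.61 ± 0.20, limma adjusted p = 2.29e-05). Pcolce, which enhances removal of the procollagen end piece, rose by 2.44, and the lysyl oxidase family members Loxl4 and Loxl3 by 1.90 and 1.30. All 4 were without overlap. The wild-type-labelled means of Pcolce, Loxl4 and Lox, also called higher, were under the filter signal (67.1, 72.6 and 83.3), so their calls are no support. The Loxl3 call was lost under median centring (0.48, limma adjusted p = 0.172).

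Of 8 tested degradation and uptake genes, 5 were called higher (62.5%) and 2 lower (25.0%), beside 27.9% and 20.8% of all genes; the share called lower was near that of all genes. The neutrophil collagenase Mmp8 gave 5512, 5279 and 8537 against 598, 428 and 499, a difference of -3.64 ± 0.22 (limma adjusted p = 7.44e-06). The gelatinase Mmp9 gave 3055, 2825 and 5484 against 513, 432 and 590 (-2.83 ± 0.26, limma adjusted p = 4.7e-05). These were the only genes of the list called lower, and their groups were far apart. The membrane-bound collagenase Mmp14 rose by 2.40 and the matrix-bound inhibitor Timp3 by 1.89. Ctsk, also called higher, had a wild-type-labelled mean under the filter signal (60.5), so its call is no support.

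Most tested partners of collagen in the matrix were called higher, though some passed the filter only through the knockout-labelled group. Of 10 tested fibril-associated partners, 8 were called higher (80.0%) and 1, Tgfbi (-1.56), lower (10.0%), beside 27.9% and 20.8% of all genes. The small proteoglycan Bgn gave 137, 111 and 140 against 1950, 1584 and 1793 (3.78 ± 0.20, limma adjusted p = 4.19e-06), and Dcn, which regulates fibre spacing, gave 141, 54.4 and 81.5 against 2015, 1455 and 2104 (4.42 ± 0.34, limma adjusted p = 2.17e-05). The collagen-binding glycoprotein Sparc rose by 3.15 and Lum by 3.54. Dcn and Lum also belong to the stromal marker list. The wild-type-labelled means of Dcn, Lum, Fbn2 and Fmod, all among the 8, were under the filter signal (92.5, 86.1, 51.9 and 52.4), so their calls are no support. All 9 tested basement membrane partners were called higher: the laminin chain genes Lama5 (2.53), Lamb1 (3.18) and Lamc1 (1.84), the linker Nid1 (3.06), and 5 others. Lamc1 gave 409, 363 and 411 against 1501, 1368 and 1376, well apart. The wild-type-labelled means of Lamb1 and of Agrn, among the 5 others, were under the filter signal (63.4 and 93.7), so these calls are no support.

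Of 10 tested collagen receptors, 5 were called higher and 0 lower by limma, beside 27.9% and 20.8% of all genes and 44.6% higher in the dimmest bin, which held Ddr2 and Itga2 among others. The only difference below 0 was that of Lair1 (-0.43, limma adjusted p = 0.336). The integrin beta-1 subunit Itgb1 gave 2164, 1779 and 2012 against 3549, 5365 and 4581 (1.16 ± 0.18, limma adjusted p = 0.000988). The discoidin domain receptors Ddr1 and Ddr2 rose by 1.38 and 2.02, and the integrin subunit Itga2 by 1.69. The groups of these 4 did not overlap. The wild-type-labelled means of Ddr2 and Itga2 were under the filter signal (54.2 and 80.2), so their calls are no support. The calls of Itgb1, Ddr1 and Itga2 were lost under median centring (limma adjusted p = 0.286, 0.091 and 0.0586), and those of Ddr2 and Itga2 under quantile normalization (0.0548 and 0.0639).

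**Figure D5:**
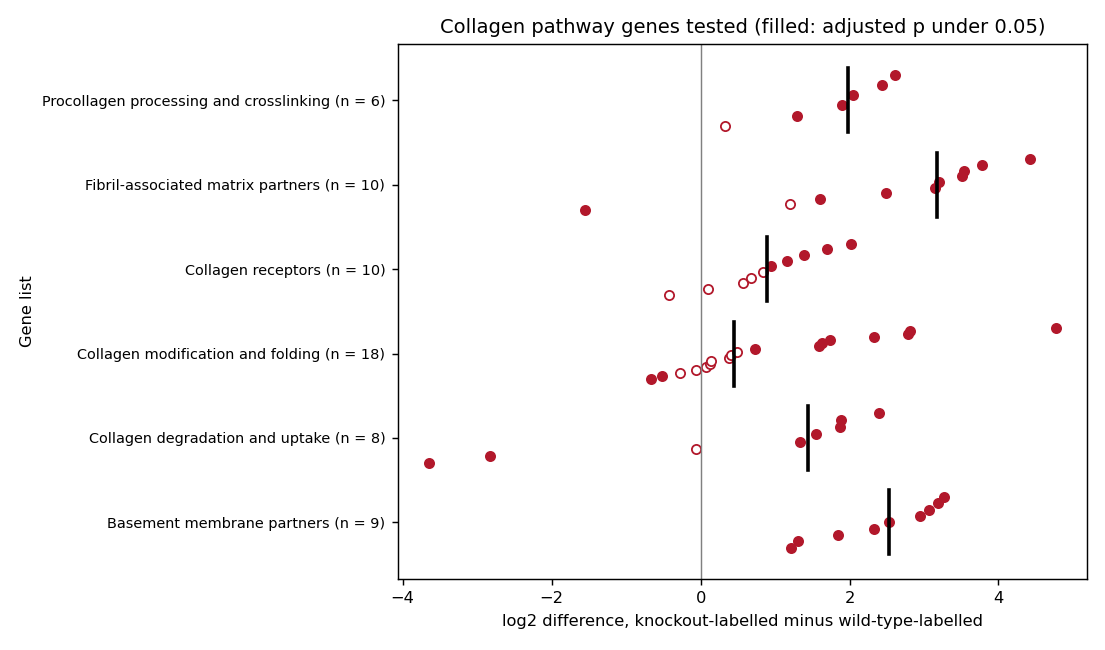
Log2 difference (knockout-labelled minus wild-type-labelled) of the 61 tested genes in 6 collagen pathway lists, 1 point a gene, filled where the adjusted p was under 0.05 in limma, with a black bar at each list's median. The medians of fibril-associated partners (3.17) and basement membrane partners (2.53) are the highest of the 6, P4ha2 of the modification list is the point furthest to the right (4.77), and Mmp8 and Mmp9 (-3.64 and -2.83) are the lowest points of the degradation list.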

How the data were processed

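The deposited table holds 1 intensity per probe set and array, for which the submitters' processing notes name MAS5 and Affymetrix Expression Console, without versions. No genome build is named. Each labelling reaction started, per the labels, with 10 micrograms of RNA, and the 3 samples of a group are independent. Detection calls were not used, so dim signals are read as such. Of the 45101 probe sets, 34958 were annotated to 1 gene, 932 to several and 9211 were not listed; none was named from several. RefSeq symbols were then assigned by Entrez identifier (34754 probe sets matched), which gave 18193 genes. The 64 control probe sets were left out.

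Signals under 1 (303 values) were set to 1 and log2 was taken. Genes with a mean log2 signal at or above the 40th percentile of all probe sets entered limma 3.58.1 in R 4.3.3 (lmFit, eBayes with trend), two-sided, with the 6 arrays in 2 groups and no covariate; a second fit covered all probe sets. Every adjusted p given is limma's. Scripts were tested on simulated data. Figures used matplotlib 3.10.9 in Python 3.11.15. The number of arrays, 3 a group, limits the precision.

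Collagen members, classes and gene lists were chosen with earlier results of these data known, so no list was tested, and counts are given with the share of all genes called. Array values were given for called genes without overlap, for the 3 with the highest signal and for types I, III, IV, V, VI and XVIII; from each pathway list up to 4 genes with the smallest p were named, and Klf1. Every other chain was accounted for. Those given array by array outside that rule were named after their values were seen. So were P4ha2, Colgalt1, Plod3, Tgfbi, Lair1, the uncalled modification genes and the marker genes. The pathway genes listed for a wild-type-labelled mean under the filter signal were also named after their values were seen. Alternatives were 3 other scalings, 2 offsets, 2 other filters, no variance trend, array weights, a block for replicate number, omission of each array, the mean of probe sets, a stricter threshold, and a floor at the filter level, added after seeing the data.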

Additional observations from a re-analysis of the deposited data

How the results depend on the processing

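Directions of the called collagen genes held in every alternative that tested them, 17 to 19 a gene. Some counts moved by over 1.5 times. Under quantile normalization and under cyclic loess alike, 15 collagen genes were called higher (24 in the main analysis), with 2 basement membrane and 6 other chains (5 and 12). Under median centring 3 basement membrane and 7 other chains were called higher, the pathway lists gave 26 higher and 11 lower (40 and 5), and the marker lists gave 6 lower (3). With the filter at the 60th percentile, which tests fewer genes, 15 collagens were called higher, 3 of them basement membrane and 6 other chains, and 26 pathway genes. Without a filter 47 collagen probe sets were called higher (31). When each gene was taken as the mean over its probe sets, 3 basement membrane chains were called higher. Uncalled differences that changed sign were Col11a2 at -0.54 (quantile), -0.57 (median centring), -0.57 (loess) and -0.064 (array weights), Col25a1 at -0.50, -0.56 and -0.53 under the first 3, and Col5a3 at -0.28 (median centring). The cause of these moves was not tested. Leaving out each array gave 20 to 22 collagen genes called higher, beside 21.8% to 27.1% of all genes tested. They were 7 to 8 fibrillar, 4 to 5 basement membrane and 8 to 10 other chains. Of the collagen probe sets, 29 to 31 were called higher, and the share of all probe sets in these fits is not given here. The labels link same-numbered arrays only by that number. Correlations of their deviations were low (0.081, 0.036 and 0.090), but each array correlated best with the one of its own number in the other group. Whether such arrays shared a batch was not tested, and the main fit has no term for it. With the replicate block 25 collagen genes were called higher, beside 27.9% of all genes tested, and 34 collagen probe sets. The added gene was Col9a1 (1.16, limma adjusted p = 0.0273). Dim signals limit 9 tested collagens whose wild-type-labelled mean was under the filter signal, and Col4a3, whose mean was so on the log2 scale. They limit most of all Col1a1 and Col11a1, for which all 3 wild-type-labelled arrays were. The same limit applies to the pathway and marker genes named above as passing through the knockout-labelled group.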
